A study of Mus musculus with 13 samples.

Results

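The 8 genes described here are the 3′ genes of the HoxC and HoxD clusters, out of 55450 genes of the GENCODE release M21 annotation of mm10. They were taken by name as Hoxc4, Hoxc5, Hoxc6 and Hoxc8 and Hoxd1, Hoxd3, Hoxd4 and Hoxd8, and all 8 were found in the annotation. They were followed in 13 lists of open chromatin peaks from cultured mouse oligodendrocyte progenitor cells (OPCs), the dividing cells that give rise to myelinating oligodendrocytes. Each list came from an ATAC-seq library, an assay in which the Tn5 transposase cuts accessible DNA. A gene was counted as found when a called peak overlapped, by at least 1 bp, a promoter from 2 kb upstream to 1 kb downstream of any of its transcription starts, or its gene body.

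All cultures came from litters at postnatal days 5 to 7, which the labels call AMGFAP-Cre;K27M and for which the study's methods give the hGFAP-Cre line, with pups pooled by brain region and genotype. K27M cells carried a conditional knock-in of the H3.3 K27M mutation at the endogenous H3-3a locus, switched on by Cre that a human GFAP promoter drives in neural stem and progenitor cells. Controls (Ctrl) were littermates, and the methods, where they describe littermate controls for single-cell RNA-seq, give them as without Cre and with the K27M allele still stopped. The telencephalon cultures are labelled cortex, and the dissected tissue was dorsal telencephalon with corpus callosum and hippocampus. OPCs were captured on an antibody to PDGFRα after removal of endothelial cells and microglia, kept in proliferation medium with forskolin, CNTF, neurotrophin-3 and PDGF, and not differentiated. There were 3 Ctrl brainstem cultures (51, 59 and 61), 3 K27M brainstem cultures (41, 59 and 61), 3 Ctrl telencephalon cultures (51, 59 and 61) and 4 K27M telencephalon cultures (41, 51, 59 and 61). Brainstem was set against telencephalon to ask what the brain region leaves in cultured cells, and K27M against Ctrl to ask what the mutation adds.

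The lists held between 16879 and 52466 peaks, and the sequencing depth behind them is unknown. In every library 4 or 5 of 5 OPC marker promoters had a peak, with Pdgfra, Olig1, Olig2 and Sox10 found in all 13. Of the other marker promoters, 0 of 3 microglial and 0 or 1 of 3 endothelial ones had a peak in any library, whereas 2 or 3 of 3 neuronal, 1 to 3 of 3 astrocytic and 0 to 2 of 3 mature oligodendrocyte ones did. A promoter peak does not show that a gene was transcribed. A peak missing from a bulk list does not tell fewer cells with an open site from less opening in each cell, or either from a shallower library.

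Hox genes encode homeodomain transcription factors that give cells their position along the body axis. Within each cluster they are arranged in the order in which they are used, so that genes at the 3′ end (low numbers) are active in the hindbrain and neck and genes at the 5′ end (high numbers) further towards the tail. The forebrain normally expresses none of them. Outside their domain the clusters are held silent by Polycomb proteins, which place trimethylation on lysine 27 of histone H3, and the K27M mutant histone inhibits that enzyme. Retinoic acid, acting through nuclear receptors, opens the clusters from the 3′ end during development.

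The stretches of sequence below are shown because the results refer to them. At those of Hoxc4 and Hoxd4, peaks were called mostly or only in brainstem libraries. At that of the Hoxc5 intron, they were called mostly in telencephalon libraries. None of these splits had an unadjusted p under 0.05 (0.103, 0.0699 and 0.266 in that order, Fisher's exact test). A missing peak can also come from a shallower library. Each of these stretches lies within the bases shared by all called peaks of its site. The others are the 250 bases before the RefSeq starts of Hoxd1, whose promoter was among the most often called, and of Hoxd8, which had no promoter peak. All are on the plus strand, 5′ to 3′. Capitals mark AGGTCA, the letters bound by nuclear receptors, and CCCTC, part of the CTCF motif, on either strand (TGACCT and GAGGG on the minus strand).
Hoxc4, coding exon and the start of the intron behind it, chr15:103034897-103035196: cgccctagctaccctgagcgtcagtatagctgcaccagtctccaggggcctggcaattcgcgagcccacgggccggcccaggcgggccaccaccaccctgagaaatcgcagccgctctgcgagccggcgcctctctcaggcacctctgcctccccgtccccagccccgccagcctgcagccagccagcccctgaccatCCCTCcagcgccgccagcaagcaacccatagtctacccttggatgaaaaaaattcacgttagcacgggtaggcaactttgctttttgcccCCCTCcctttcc
Hoxc5, intron of the long transcript Hoxc5-202, chr15:102987402-102987636: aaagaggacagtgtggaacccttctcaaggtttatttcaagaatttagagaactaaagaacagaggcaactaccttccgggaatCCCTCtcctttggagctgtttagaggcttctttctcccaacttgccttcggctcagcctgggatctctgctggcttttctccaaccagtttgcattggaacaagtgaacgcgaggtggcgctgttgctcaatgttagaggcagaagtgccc
Hoxd4, intron of Hoxd4 and Hoxd3 transcripts, chr2:74727851-74728150: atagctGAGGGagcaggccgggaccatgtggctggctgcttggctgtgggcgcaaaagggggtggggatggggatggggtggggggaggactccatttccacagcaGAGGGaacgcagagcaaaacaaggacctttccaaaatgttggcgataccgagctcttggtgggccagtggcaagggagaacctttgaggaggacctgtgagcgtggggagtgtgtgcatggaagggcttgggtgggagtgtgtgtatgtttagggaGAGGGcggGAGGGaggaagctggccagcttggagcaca
Hoxd1, promoter, chr2:74762730-74762979: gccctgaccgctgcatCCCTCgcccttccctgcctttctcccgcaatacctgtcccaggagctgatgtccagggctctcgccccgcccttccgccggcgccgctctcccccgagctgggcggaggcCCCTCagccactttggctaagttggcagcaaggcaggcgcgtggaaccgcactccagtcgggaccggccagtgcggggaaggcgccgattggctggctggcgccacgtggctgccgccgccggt
Hoxd8, promoter, chr2:74704365-74704614: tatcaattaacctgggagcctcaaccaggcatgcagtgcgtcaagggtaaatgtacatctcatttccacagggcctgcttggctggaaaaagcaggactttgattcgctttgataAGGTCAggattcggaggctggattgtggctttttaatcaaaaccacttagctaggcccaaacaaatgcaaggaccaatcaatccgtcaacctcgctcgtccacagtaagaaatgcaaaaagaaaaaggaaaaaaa

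The promoters were taken from RefSeq on GRCm38, the assembly of mm10, where 5 of the 8 genes matched (Hoxc4, Hoxd1, Hoxd3, Hoxd4 and Hoxd8). Hoxc5, Hoxc6 and Hoxc8 were not matched. The 250 bases before the start of Hoxd1 held 24 CpG dinucleotides and 71.6% G and C, whereas those of Hoxd8 held 6 and 44.4%, and the median over 32851 promoters was 6 and 52.4%. The corresponding counts of CpG were 12 for Hoxd3, 8 for Hoxc4 and 3 for Hoxd4. AGGTCA was present in 4 of the 5 promoters (Hoxc4, Hoxd3, Hoxd4 and Hoxd8, not Hoxd1) and in 14.02% of all promoters of that length. CCCTC was present in 3 of the 5 (Hoxc4, Hoxd1 and Hoxd3) and in 60.5% of all. TGATNNAT, the motif of a Hox protein with Pbx, and TGACAG, that of Meis, were in none of the 5 and in 7.68% and 15.9% of all promoters. The Hoxd4 intron held 4 copies of CCCTC in 300 bases and the Hoxc4 exon 2. Of promoters of 300 bases, 66.0% hold at least 1. Shares by number of copies, or for introns and exons, were not computed, so these copy numbers have no like comparison. No matches overlapped each other. These are matches of letters only.

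The promoters of Hoxc4, Hoxd1 and Hoxd4 were each found in 6 of 13 libraries, that of Hoxd3 in 5, Hoxc5 in 4 and Hoxc6 in 3. Hoxc8 and Hoxd8 had no promoter peak in any library. Hoxc4, Hoxd1 and Hoxd4 were each found in 4 of 6 brainstem and 2 of 7 telencephalon libraries, Hoxd3 in 3 and 2, Hoxc5 in 2 and 2, and Hoxc6 in 1 and 2. From 6 to 3 libraries neighbours in this order differed by at most 1 library. With the gene body included, Hoxd3 and Hoxd4 were found in 6 of 6 brainstem and 4 of 7 telencephalon libraries, Hoxc5 in 2 and 5, Hoxd8 in 0 and 1, and Hoxc8 still in none.

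**Figure D1:**
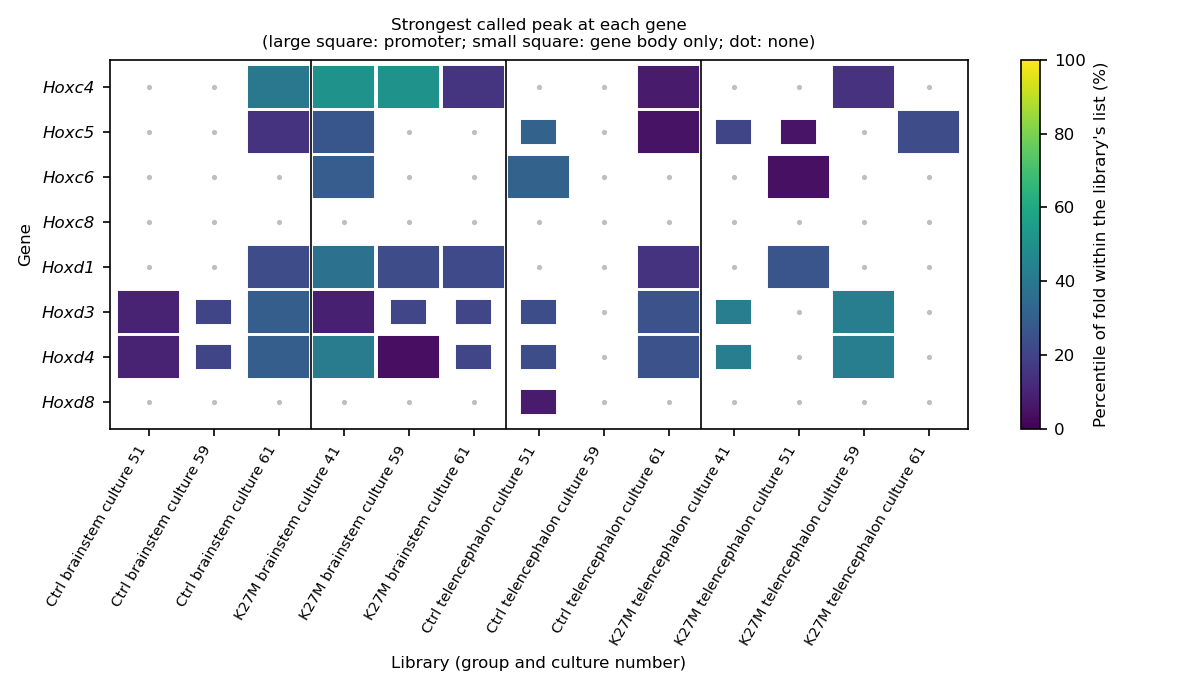
Strongest called peak at each of the 8 genes (rows) in each of the 13 libraries (columns, by group and culture number), coloured by the percentile of its fold enrichment within its own list. Large squares are promoter peaks, small squares are genes with a peak in the gene body only, and dots are genes with no peak. Hoxc8 is empty throughout, Ctrl telencephalon culture 59 has no peak at any gene, and Hoxc4 and Hoxd1 are filled in all 3 K27M brainstem libraries.

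No difference by region passed the test. Fisher's exact test (two-sided) was applied to detection over the 1814 genes whose promoters were found in 5 to 8 libraries, with Benjamini-Hochberg adjustment. Over all of these genes 0% passed after adjustment, where the smallest adjusted p was 0.211, and 2.15% (39 genes) had an unadjusted p under 0.05. The most unequal split, all libraries of one region against none of the other, gives an exact p of 0.000583, and that was the p behind the adjusted 0.211. Thus even a complete difference did not pass, and the absence of calls does not show that the regions were alike. With the labels exchanged only within the 6 pairs of libraries of the same culture number and genotype, 5 genes had an unadjusted p under 0.05, the smallest that 6 pairs allow being an exact 0.03125. Hoxc4, Hoxd1, Hoxd3 and Hoxd4 were among those tested, and each had an adjusted p of 1. The unadjusted exact p was 0.286 for Hoxc4, Hoxd1 and Hoxd4, 0.592 for Hoxd3, and 1 for Hoxc5 and Hoxc6, which were found in too few libraries to be tested with the rest. Thus 0 of the 6 genes with any promoter peak had an unadjusted p under 0.05. Of these 6, 5 were found in a larger share of brainstem than of telencephalon libraries, and so were 57% of the 11608 genes found in 1 to 12 libraries. The 5 were Hoxc4, Hoxc5, Hoxd1, Hoxd3 and Hoxd4.

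With the gene body included, 2316 genes were tested by region, of which 0% passed after adjustment (smallest adjusted p 0.337) and 1.77% had an unadjusted p under 0.05. Hoxc4, Hoxc5 and Hoxd1 were tested and had an adjusted p of 1. The unadjusted exact p was 0.192 for Hoxd3 and Hoxd4, found in 10 libraries each, and 0.286 for Hoxc5. Of the 7 genes found in any library, 4 were found in a larger share of brainstem libraries, compared with 56.7% of 13538 genes. Hoxc5 and Hoxd3 therefore leaned to opposite regions, and neither did so beyond what the test allows. The Hoxc5 count includes peaks at neighbouring genes that its long gene body covers.

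By genotype, 0% of the 1814 promoters passed after adjustment (smallest adjusted p 0.352) and 1.21% (22 genes) had an unadjusted p under 0.05. None of the 8 genes was among them. Hoxc4 and Hoxd1 were found in 4 of 7 K27M and 2 of 6 Ctrl libraries (unadjusted exact p = 0.592 each). Hoxd3 was found in 2 of 7 and 3 of 6 (unadjusted exact p = 0.592), and Hoxd4 in 3 of 7 and 3 of 6 (unadjusted exact p = 1). Of the 6 genes found, 3 (Hoxc4, Hoxc6 and Hoxd1) had the larger share in K27M libraries, which was the case for 67.7% of all genes found in 1 to 12 libraries. By group, Hoxc4 and Hoxd1 gave the same counts, namely 3 of 3 K27M brainstem, 1 of 3 Ctrl brainstem, 1 of 3 Ctrl telencephalon and 1 of 4 K27M telencephalon libraries. In the K27M telencephalon group the library differed, culture 59 for Hoxc4 and culture 51 for Hoxd1. Within brainstem, the exact test of a single gene's detection in 3 against 3 libraries cannot fall below a two-sided p of 0.1, and no test was run there.

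Per library, the number of the 8 genes with a promoter peak was 2, 0 and 5 in Ctrl brainstem cultures 51, 59 and 61, and 6, 3 and 2 in K27M brainstem cultures 41, 59 and 61. It was 1, 0 and 5 in Ctrl telencephalon cultures 51, 59 and 61, and 0, 2, 3 and 1 in K27M telencephalon cultures 41, 51, 59 and 61. The groups overlapped throughout. The mean was 3.0 ± 2.19 genes in brainstem (SD, n = 6) and 1.71 ± 1.80 in telencephalon (SD, n = 7), and 2.43 ± 1.90 in K27M (SD, n = 7) and 2.17 ± 2.32 in Ctrl (SD, n = 6). Over the 5 pairs of the same culture number and region, the K27M minus Ctrl difference was on average 0 ± 3.32 genes for promoters and −0.4 ± 2.88 with the gene body (SD, n = 5 pairs). Ctrl brainstem culture 61 and Ctrl telencephalon culture 61 had peaks at the promoters of the same 5 genes, Hoxc4, Hoxc5, Hoxd1, Hoxd3 and Hoxd4.

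**Figure D2:**
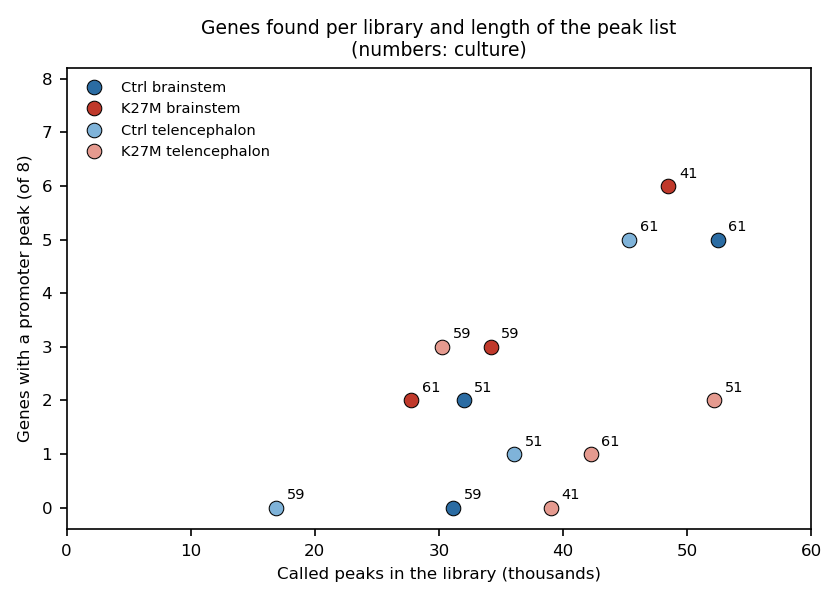
Number of the 8 genes with a promoter peak (vertical axis) against the number of called peaks (horizontal axis, unit of 1000 peaks), 1 point per library, coloured by group and marked with the culture number. The 3 libraries with 5 or 6 genes are all among the 4 longest lists, and the shortest list, Ctrl telencephalon culture 59, has 0.

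The highest counts were found in long peak lists. The 4 longest lists, of 45322 to 52466 peaks, held 18 of the 30 promoter findings, with 2 to 6 genes each, and the other 9 lists, of 16879 to 42238 peaks, had 0 to 3. The 4 longest were Ctrl brainstem culture 61, K27M telencephalon culture 51, K27M brainstem culture 41 and Ctrl telencephalon culture 61. The part of list length in these counts was not tested.

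Most peaks at these genes had low folds within their lists. Counted once where genes share them, there were 46 peaks, 28 in brainstem and 18 in telencephalon libraries. Their fold enrichment over the local background of their own library ranged from 1.91 to 3.16 with a median of 2.51. Their median percentile within the list they came from was 20.9 (range 0.349 to 69.3), and 3 lay above percentile 50. Promoter peaks of all genes had median percentiles between 51.1 and 67.4 in the 13 libraries. The 46 also include peaks in gene bodies outside the promoters, so the compared sets are not alike. Low percentiles were also found at some genes of the OPC lineage, but not at all of them. Olig1 and Olig2, called in all 13 libraries, had median percentiles of 45.8 and 47.3 for their strongest promoter peaks. The strongest promoter peaks of the OPC genes Sox10 and Pdgfra, called in all 13 libraries, had mean folds of 2.28 ± 0.200 and 2.51 ± 0.422 (SD, n = 13 libraries each), with median percentiles of 3.96 and 3.52. The largest −log10 p of any of the 46 was 6.72, so 0 of them reached a p of 1e-10. When each list was shortened to the 16879 peaks with the smallest p, 1 of the 46 was left, the peak in the Hoxc5 intron in K27M telencephalon culture 61. Every promoter difference above thus rests on peaks that are absent from lists of equal length.

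**Figure D3:**
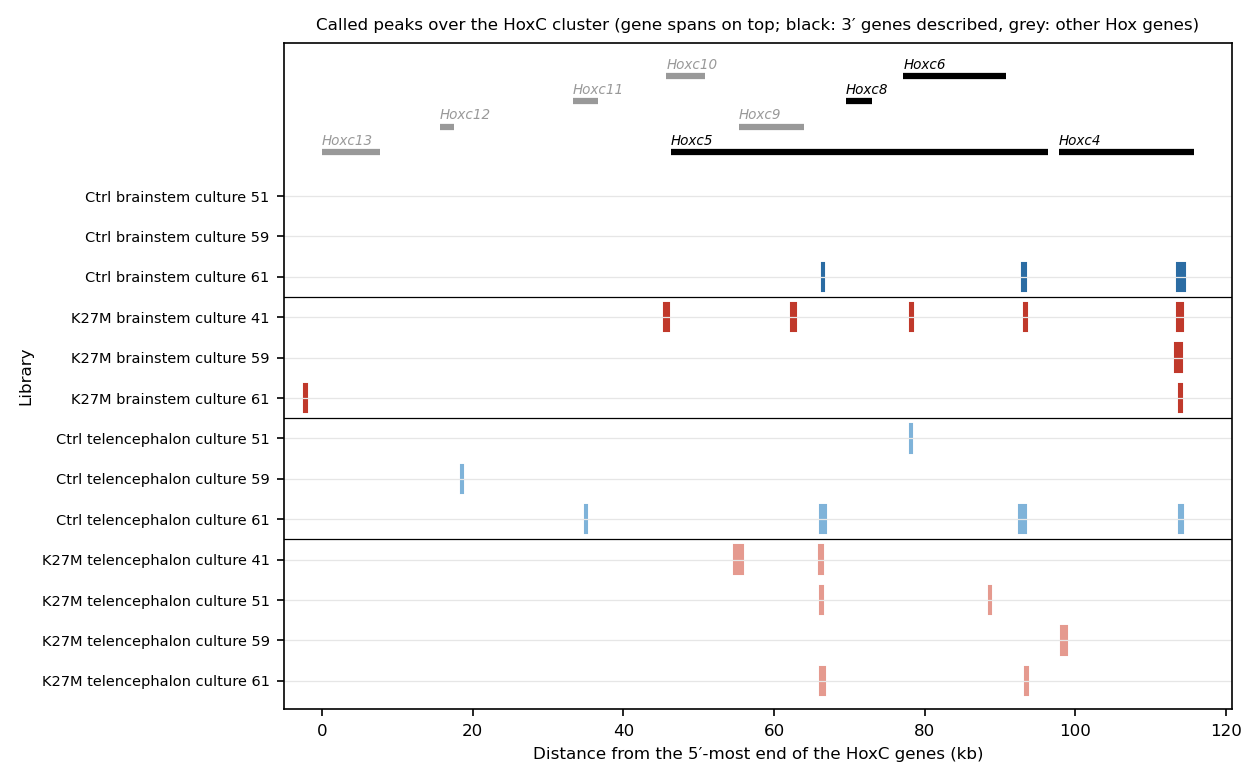
Called peaks over the HoxC cluster in each library (rows, coloured by group), by distance in kb from the 5′-most end of the HoxC genes (horizontal axis). Gene spans are drawn on top, black for Hoxc4, Hoxc5, Hoxc6 and Hoxc8 and grey for the other HoxC genes. The site at the right edge, over Hoxc4, is filled in 4 brainstem and 1 telencephalon libraries, and the one inside the long span of Hoxc5, left of Hoxc8, in 1 and 4.

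In HoxC, overlapping peaks of the 13 libraries joined into 12 sites within 5 kb of the cluster, of which 8 were called in a single library. Hoxc4 (chr15:103018934-103036852), a group 4 gene used from the hindbrain to the neck, has 2 annotated starts. The recurrent site lay at the downstream start, that of Hoxc4-201, at chr15:103034357-103035668. It was called in Ctrl brainstem culture 61 (fold 2.90, width 1073 bp), K27M brainstem culture 41 (fold 2.86, 853 bp), culture 59 (fold 3.05, 864 bp) and culture 61 (fold 2.48, 359 bp), and in Ctrl telencephalon culture 61 (fold 2.38, 489 bp). The peaks of K27M brainstem cultures 41 and 59 lay at percentiles 50.8 and 50.5 of their lists, and that of Ctrl telencephalon culture 61 at 7.29. The 4 brainstem folds thus lay above that of the 1 telencephalon library, but folds were not normalised between libraries and this was not tested. The comparison of detection at this start, 4 of 6 against 1 of 7, had an unadjusted exact p of 0.103. All 5 peaks shared chr15:103034873-103035220, which contains the exon sequence printed above, with 18 CpG dinucleotides in 300 bases. The upstream start, that of Hoxc4-202, had a peak in K27M telencephalon culture 59 only (fold 2.60).

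Hoxc5 (chr15:102967443-103017429), which takes part in the specification of cervical motor neurons, has a gene body of 49987 bp, since the noncoding transcript Hoxc5-202 starts near Hoxc10 and runs across Hoxc9, Hoxc8 and Hoxc6. Its coding start, that of Hoxc5-201, had a peak in Ctrl brainstem culture 61 (fold 2.56), K27M brainstem culture 41 (fold 2.07), Ctrl telencephalon culture 61 (fold 2.31) and K27M telencephalon culture 61 (fold 2.49). That is 2 of 6 brainstem and 2 of 7 telencephalon libraries. The start of the microRNA gene Mir615 lies in the same stretch, and its promoter was found in the same 2 and 2 libraries.

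The remaining telencephalon findings at Hoxc5 lay in its gene body, where peaks at the genes it runs across were counted for it too. In Ctrl telencephalon culture 51 the only such peak was the one at the Hoxc6 promoter (fold 2.504). K27M telencephalon culture 41 had one at the Hoxc9 promoter (fold 2.52), besides the site described next. Peaks over Hoxc9 or Hoxc6 were also counted in K27M telencephalon culture 51 and K27M brainstem culture 41. A site at chr15:102987113-102987954, between Hoxc9 and Hoxc8 and inside an intron of Hoxc5-202, was called in Ctrl brainstem culture 61 (fold 2.42), Ctrl telencephalon culture 61 (fold 2.75) and K27M telencephalon cultures 41 (fold 2.45), 51 (fold 2.23) and 61 (fold 3.16). The peak of K27M telencephalon culture 61 was the strongest of the 46, at percentile 69.3. Detection was thus 1 of 6 in brainstem and 4 of 7 in telencephalon (unadjusted exact p = 0.266). The 235 bases common to these peaks, printed above, held 5 CpG dinucleotides and 1 match to CCCTC.

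Hoxc6 (chr15:102998257-103011881), used in motor neurons of the forelimb level, had a peak at its coding start, that of Hoxc6-201, in K27M telencephalon culture 51 only (fold 2.203). A peak between its 2 noncoding starts was called in K27M brainstem culture 41 (fold 2.48) and Ctrl telencephalon culture 51 (fold 2.504). Hoxc8 (chr15:102990607-102994111), active further down the spinal cord, had no peak at either of its 2 starts or in its body in any library. Percent of the HoxC span covered by peaks was 0.866 ± 1.01 in brainstem (SD, n = 6) and 0.869 ± 0.618 in telencephalon (SD, n = 7), and the small difference changes sign with the library left out.

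**Figure D4:**
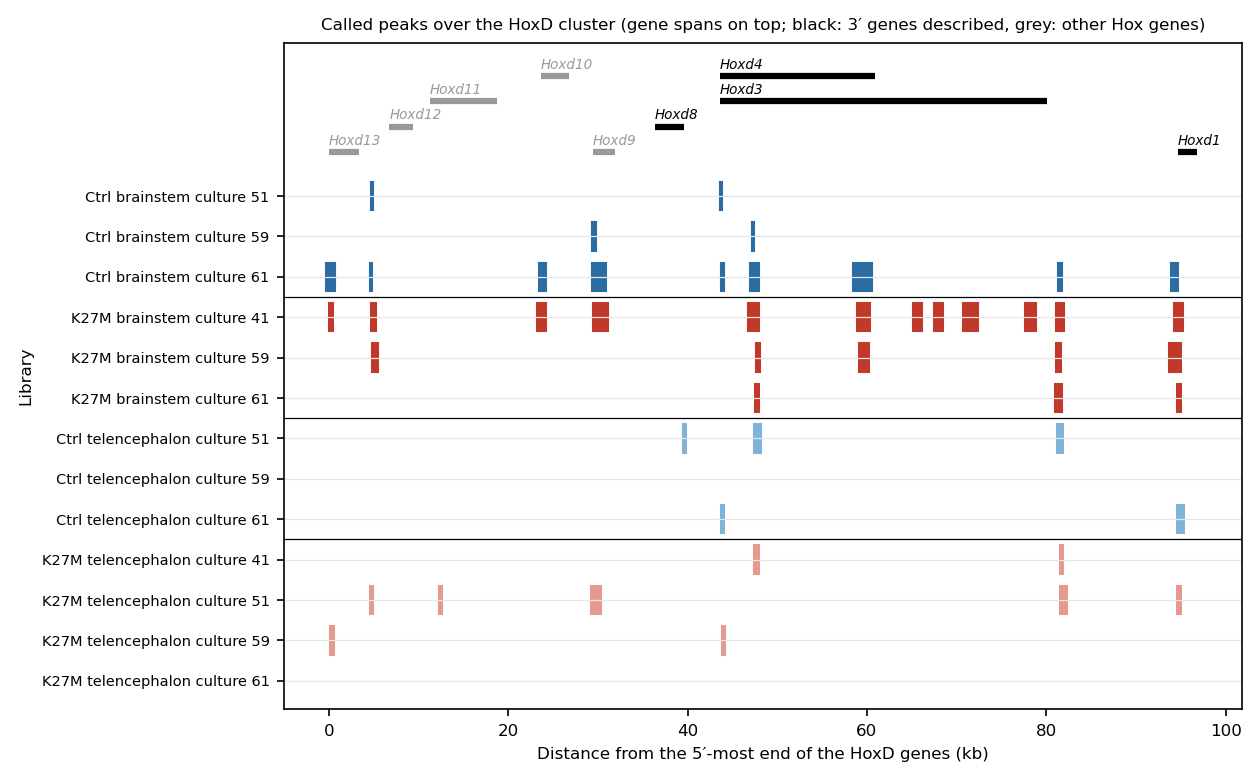
Called peaks over the HoxD cluster in each library (rows, coloured by group), by distance in kb from the 5′-most end of the HoxD genes (horizontal axis). Gene spans are drawn on top, black for Hoxd1, Hoxd3, Hoxd4 and Hoxd8 and grey for the other HoxD genes. K27M brainstem culture 41 has the most peaks, 12 over the gene spans, and Ctrl telencephalon culture 59 and K27M telencephalon culture 61 have none.

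In HoxD there were 15 sites, 6 of them called in a single library. They covered 4.87% ± 5.197 of the HoxD span in brainstem (SD, n = 6) and 1.10% ± 1.06 in telencephalon (SD, n = 7). The brainstem values were 0.525%, 0.819% and 8.18% in Ctrl cultures 51, 59 and 61 and 13.7%, 4.41% and 1.59% in K27M cultures 41, 59 and 61. The telencephalon values ran from 0% to 3.01%, so that 3 brainstem libraries lay above all telencephalon libraries and 3 within their range. Without K27M brainstem culture 41 the brainstem mean was 3.11% ± 3.23 (SD, n = 5).

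Hoxd1 (chr2:74762980-74765142), the most 3′ gene of the cluster, has 1 start. Peaks over it were called in Ctrl brainstem culture 61 (fold 2.65), K27M brainstem cultures 41 (fold 2.61), 59 (fold 2.73) and 61 (fold 2.57), Ctrl telencephalon culture 61 (fold 2.51) and K27M telencephalon culture 51 (fold 2.48). The mean fold was 2.59 ± 0.0917 (SD, n = 6 libraries), the narrowest spread of the 4 genes with 5 or more promoter peaks. Both telencephalon folds lay below the 4 brainstem folds, at percentiles 14.6 and 26.0 against 22.5 to 37.8. These folds, too, were not normalised between libraries, and the difference was not tested. All 6 peaks shared the 76 bases chr2:74762926-74763001, which run over the start from the CpG-rich promoter printed above. Widths ranged from 406 to 1285 bp.

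Hoxd3 (chr2:74711927-74748442), which patterns the neck vertebrae and the hindbrain, and Hoxd4 (chr2:74711929-74729160), whose expression in the hindbrain begins at a sharp boundary and depends on retinoic acid, share their most upstream starts, those of Hoxd3-203 and Hoxd4-203. A peak there was therefore counted for both genes. It was called in Ctrl brainstem cultures 51 (fold 2.51) and 61 (fold 2.73), Ctrl telencephalon culture 61 (fold 2.66) and K27M telencephalon culture 59 (fold 2.89), and in no K27M brainstem library. The other Hoxd3 starts had peaks in K27M brainstem culture 41 only, 4 of them with folds of 1.91 to 2.27, so Hoxd3 was found through different starts in different libraries.

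Hoxd4 had a further site at the start of Hoxd4-202, at chr2:74726799-74728840, in Ctrl brainstem culture 61 (fold 2.56, width 2042 bp) and K27M brainstem cultures 41 (fold 2.67, 1445 bp) and 59 (fold 2.40, 1136 bp). No telencephalon library had it (3 of 6 against 0 of 7, unadjusted exact p = 0.0699). These 3 peaks were among the widest of the 46, whose median width was 677.5 bp, and their percentiles ranged from 3.77 to 41.3. The intron bases printed above are the middle of the stretch they share. The site also lay over promoters of the genes Gm28230 and Mir10b and over the gene bodies of Hoxd3 and Gm28230. The Mir10b promoter was reached by a peak in Ctrl brainstem only. The start of Hoxd4-201, which is also the RefSeq start, had no peak in any library.

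The gene body findings of Hoxd3 and Hoxd4 came from a shared site at chr2:74715074-74716490, at the promoter of the antisense gene Hoxd3os1. It was called in 5 of 6 brainstem libraries, with folds of 2.70 and 2.66 in Ctrl cultures 59 and 61 and of 2.54, 2.71 and 2.55 in K27M cultures 41, 59 and 61. In telencephalon a peak there was called in 2 of 7 libraries, Ctrl culture 51 (fold 2.44) and K27M culture 41 (fold 2.72). The folds of both regions overlapped, and detection of any peak within the stretch had an unadjusted exact p of 0.103. With these and the upstream peak, Hoxd3os1 itself was found in 6 of 6 brainstem and 4 of 7 telencephalon libraries, the same libraries as Hoxd3 and Hoxd4. ATAC-seq has no strand, so the sense and antisense genes cannot be told apart.

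Hoxd8 (chr2:74704615-74707933) had no promoter peak, and 1 peak in its body (fold 2.25) in Ctrl telencephalon culture 51. Hoxc8 and Hoxd8, both of paralog group 8, were thus the least often found of the 8 genes. The promoter stretch searched was 4282 bp at Hoxc8 and 3537 bp at Hoxd8, and ran from 3000 bp at Hoxd1 to 15048 bp at Hoxd3. Detection was not adjusted for this length, and its part was not tested.

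Around these genes, the lncRNA gene Haglr, which lies on the other strand between Hoxd3 and Hoxd1, was found in 8 libraries (4 brainstem and 4 telencephalon). Its most upstream start shares the Hoxd1 peak. A site at its other starts, chr2:74749332-74750610, was called in 4 and 3 libraries with a fold of up to 3.56, above every peak of the 8 genes, and a −log10 p of up to 14.9. Hoxd3os1 (10 libraries), Haglr (8) and Gm28793 (4) were the noncoding genes found most often in HoxD. In HoxC only Mir615 was found, while the other 6 had no promoter peak. Of the 4 nearest protein-coding genes outside each cluster, Atp5g2, Calcoco1, Cbx5, Lnpk and Hnrnpa3 had a promoter peak in all 13 libraries, Mtx2 in 12, Smug1 in 10 and Evx2 in 5. The mean fold of the strongest promoter peak was 4.28 ± 0.448 at Cbx5, a heterochromatin protein gene, and 4.35 ± 0.601 at Lnpk (SD, n = 13 libraries each). At both genes that peak lay above the range of the 46 in every library. At Smug1 it was 2.53 ± 0.214 (SD, n = 10 libraries) and at Evx2, a homeobox gene beside Hoxd13, 2.57 ± 0.337 (SD, n = 5 libraries), close to the median of the 46. Promoter peaks of high and of low fold thus both lay beside the clusters.

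**Figure D5:**
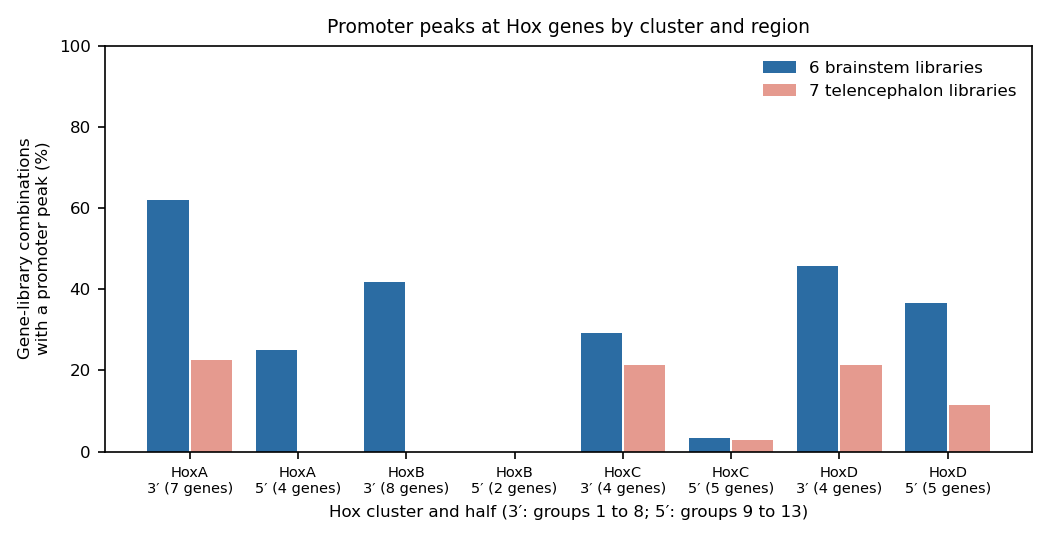
Share of gene and library combinations with a promoter peak (vertical axis, percent, from 0) for the 39 Hox genes by cluster and by 3′ (groups 1 to 8) or 5′ (groups 9 to 13) position, in 6 brainstem and 7 telencephalon libraries. The telencephalon bar is at 0 for HoxB and at 21.4% for the 3′ genes of both HoxC and HoxD.

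The 3′ genes of the 4 clusters are set side by side as a description. In brainstem libraries a promoter peak was called in 29.2% of gene and library combinations for HoxC (7 of 24) and 45.8% for HoxD (11 of 24), against 61.9% for HoxA and 41.7% for HoxB. In telencephalon libraries it was called in 21.4% for both HoxC and HoxD (6 of 28 each), against 22.4% for HoxA and 0% for HoxB. Of the 15 3′ genes of HoxA and HoxB, 6 had an unadjusted exact p under 0.05 by region, and of the 8 genes of HoxC and HoxD 0 did. Of the 6, only Hoxa2 and Hoxb3 were among the 1814 genes tested, where the share was 2.15%, and neither passed adjustment (adjusted p = 0.211 and 0.564, Fisher's exact test). The other 4, Hoxa4, Hoxb2, Hoxb4 and Hoxb7, were found in 4 libraries each. The difference between the clusters was not tested. At the 5′ end, HoxC genes were found in 3.33% of brainstem and 2.86% of telencephalon combinations and HoxD genes in 36.7% and 11.4%. The HoxD genes found most often there were Hoxd12 (4 brainstem and 1 telencephalon libraries), Hoxd9 (3 and 1) and Hoxd13 (2 and 1). In HoxC, Hoxc9 and Hoxc10 were found in 1 library each and Hoxc11, Hoxc12 and Hoxc13 in none.

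Among 23036 genes outside the Hox clusters, the 5 whose promoter percentile varied most like the number of the 8 genes per library were Mir7228 (Pearson r = 0.927), Rtl5 (0.882), Zfp109 (0.881), Lrrc46 (0.877) and Mrpl10 (0.877). These values are over 13 libraries, which also differ in list length, and Lrrc46 and Mrpl10 share a promoter peak. They are given as a description.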

How the data were processed

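The 13 ATAC-seq libraries are listed in the report. Per the labels and methods, the authors trimmed reads with Trim Galore 0.6.7 and cutadapt 3.4, aligned them to mm10 with BWA 0.7.17-r1188 in nf-core ATAC-seq 2.1.2, removed blacklisted reads and called broad peaks per library with MACS2 2.2.7.1. The cutoff is not given in the sources used here. The deposited lists hold, per peak, the fold enrichment (a ratio to local background), the −log10 p and −log10 q, and a score that is 10 times the −log10 q. The deposited score and −log10 q were not used in any result. Values were not normalised between libraries, and the lists hold no read counts, so depth is unknown and no counting interval can be given. The labels number the cultures. Per the methods, assays on matched pairs of control and K27M cultures of a region were done together, and the authors' own tests took matched cultures into account where they could. No source says that a shared number marks such a pair, and the number was used as a block in an alternative. The independence of the cultures is not described further, so p-values measure only the spread between these libraries, which may be partly technical.

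Groups were taken from the sample titles. Peaks were overlapped with GENCODE M21 in Python 3.11.15 with pandas 2.3.3. Percentiles rank the fold within its own list. Detection was tested with scipy 1.17.1 (Fisher's exact test, Benjamini-Hochberg over all tested genes, threshold 0.05). The test was tried on simulated data, and overlaps in 1 library were checked against bedtools 2.31.1. Coordinates are 1-based.

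Named were all 8 genes, the HoxC and HoxD genes of groups 9 to 13 found most often (up to 3 per cluster) or never, up to 3 noncoding genes per cluster, the 2 nearest protein-coding genes on each side, and the 5 genes with the most similar pattern. The members and the lists were chosen with earlier results of these data known. Alternatives were equal list length, a p of 1e-10, an overlap of 200 bp, promoters of 500 bp each side, genes found in 2 to 11 libraries, leaving out each library, and the culture number as a block.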

Additional observations from a re-analysis of the deposited data

Results flagged for a closer look

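Of 36 sets of 4 to 7 libraries examined with Dixon's criterion, 3 held a library that stood apart, and chance gives about 1 in 20. Among K27M libraries, K27M brainstem culture 41 had 12 distinct peaks at the 8 genes, and the other 6 libraries had 2 to 4. Among K27M telencephalon libraries, culture 61 had 1 of the 8 genes with a peak in the promoter or gene body, and the other 3 had 3 each. In telencephalon, Ctrl culture 61 had 4 peaks over the HoxC span, and the other 6 libraries had 1 or 2.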

How the results depend on the processing

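After adjustment 0 promoters passed by region or genotype, and 0 genes or promoters by region, under each alternative run for them. Genes or promoters were not tested by genotype. The number of genes with an unadjusted p under 0.05 was less stable. At equal list length it was 70 for promoters by region, 52 by genotype and 100 for genes or promoters by region, and with peaks of p at most 1e-10 it was 5, 6 and 5. It was 43 for promoters by genotype when genes found in 2 to 11 libraries were tested. Leaving out 1 library gave 17 to 42, 9 to 44 and 15 to 46. For promoters by region it was 17 to 23 without Ctrl telencephalon culture 51 or 61 or any K27M telencephalon culture. For promoters by genotype it was 9 to 13 without any single K27M library and 44 and 42 without Ctrl brainstem or Ctrl telencephalon culture 61. For genes or promoters by region it was 15 to 25 without K27M brainstem culture 59 or any single telencephalon culture. The cause of these changes in number was not tested. None of the 8 genes had an unadjusted p under 0.05 in any alternative run for it. At equal list length none of their promoter peaks was left, and with peaks of p at most 1e-10 none of their peaks. The outcome there was therefore fixed and says nothing about the 8 genes.

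The regional difference in the number of the 8 genes per library (brainstem minus telencephalon) was 1.29 genes for promoters and 0.976 with the gene body. At equal list length it was 0 for promoters, where no promoter peak was left, and −0.143 with the gene body, from the single peak left. With peaks of p at most 1e-10 both were 0, since no peak was left. Leaving out 1 library gave 0.686 (K27M brainstem culture 41) to 1.89 for promoters and 0.5 (Ctrl telencephalon culture 59) to 1.34 with the gene body, where it was also 0.543 without K27M brainstem culture 41. The difference between K27M and Ctrl, 0.262 genes for both, ran from −0.333 to 0.829 for promoters and from −0.371 to 0.667 with the gene body. It was below 0 for promoters without Ctrl brainstem culture 59, K27M brainstem culture 41 or Ctrl telencephalon culture 59, and with the gene body without either of the last 2.

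Single genes changed direction only near equality. For Hoxc5 promoters the regional difference in shares was 4.76 percentage points, with a range of −8.57 to 16.7 without 1 library, and the genotype difference was −4.76, with a range of −16.7 to 8.57. For Hoxd4 promoters the genotype difference was −7.14, with a range of −17.1 to 2.86. The HoxC coverage difference, −0.00294 percentage points, ranged from −0.334 to 0.182 when a library was left out, and the HoxD one, 3.77, was 2.01 without K27M brainstem culture 41, an alternative chosen after seeing the data.

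The same culture numbers appear in several groups. The deviations of same-numbered libraries from their group means had correlations of −0.0943 to 0.0769 over 16 pairs. Over the 47 pairs of different number they were −0.0846 to 0.0871. The correlations thus did not set same-numbered libraries apart, and values near 0 in both sets do not show whether a culture effect was shared. The study matched control and K27M cultures of a region in time, and whether the numbers mark those matches is not given in the sources used here. With the replicate block over 6 pairs, the unadjusted count was 5 for promoters by region and 5 for genes or promoters, and the regional difference was 1.33 and 1 genes. With the block over 5 pairs the genotype difference was 0 for promoters and −0.4 with the gene body. No paired test by genotype can fall below 0.0625, so its count is not given. The unknown depth of each library limits what the lists can show of peaks with folds this low.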
